A study of Homo sapiens with 8 samples.

Results

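Genes that carry a numbered LINC symbol, most of them long intergenic noncoding RNAs, were followed in IMR32, an established human neuroblastoma cell line with amplified MYCN. The set was every gene of the deposited count table whose current symbol is LINC followed by 5 digits and whose mean over the 8 libraries was at least 0.5 CPM (counts scaled to equal library size). Of 58787 gene identifiers in the table, 2260 had such a symbol and 131 reached that mean. The GENCODE 29 annotation lists 98 of the 131 as lincRNA. The others have other types, among them 14 processed transcripts, 8 antisense genes, 6 transcribed unprocessed pseudogenes and 1 coding gene. IMR32 cells, given as wild type in the labels, received CR31B at its IC50 or 0.1% DMSO as vehicle, and polyadenylated RNA was taken after 6 h, with 4 biological replicates per group. The labels give both replicate 1 libraries as paired-end and the other 6 as single-end. CR31B is a rocaglate, a class of compound that blocks eIF4A, the RNA helicase that opens the leaders of messenger RNAs for ribosomes. The model is 1 cell line at 1 time and 1 dose, so these values say nothing of other lines.

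LINC is the systematic symbol given to a long RNA gene that lies between coding genes and that has no better name from function or position. Most such RNAs are spliced and polyadenylated like messenger RNAs, are present at low levels, are restricted to few cell types, and have no established product. A few are known by more than their number. LINC00632 is the host locus of the circular RNA CDR1-AS, and LINC00467 has been described as a target of MYCN in neuroblastoma. In neural cells, several LINC genes sit in wide gene deserts beside homeobox genes such as MEIS1 and SIX3.

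5 promoter windows are shown because the results return to them. Each runs from 250 bases before to 50 bases after a RefSeq start site (GRCh38.p14), 5′ to 3′ on the strand of the gene. In the first pair, LINC00526 (chr18:5237980-5238279, minus strand) and LINC00667 (chr18:5237850-5238149, plus strand), the start sites lie 71 bases apart on opposite strands, and capitals mark the 170 bases that both windows hold, each on its own strand.
LINC00526: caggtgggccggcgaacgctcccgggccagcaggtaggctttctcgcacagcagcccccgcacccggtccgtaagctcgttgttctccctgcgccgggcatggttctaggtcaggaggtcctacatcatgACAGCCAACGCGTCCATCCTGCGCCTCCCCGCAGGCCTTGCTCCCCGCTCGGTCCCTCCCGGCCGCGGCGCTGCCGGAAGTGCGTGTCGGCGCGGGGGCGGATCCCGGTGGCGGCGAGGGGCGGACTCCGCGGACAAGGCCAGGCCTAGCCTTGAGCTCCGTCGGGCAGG
LINC00667: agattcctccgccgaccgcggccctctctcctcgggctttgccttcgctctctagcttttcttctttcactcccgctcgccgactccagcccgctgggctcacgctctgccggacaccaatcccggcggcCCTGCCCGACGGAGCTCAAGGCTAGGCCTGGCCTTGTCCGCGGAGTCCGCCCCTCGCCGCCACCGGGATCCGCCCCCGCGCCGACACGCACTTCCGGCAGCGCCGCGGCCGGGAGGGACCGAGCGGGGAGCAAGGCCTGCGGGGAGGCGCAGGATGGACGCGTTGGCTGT
In the windows of LINC02078 (chr17:79707016-79707315, plus strand) and LINC01976 (chr17:43938011-43938310, plus strand), capitals mark CACGTG, the canonical E-box of MYC and MAX proteins, which begins 11 and 74 bases before the start site.
LINC02078: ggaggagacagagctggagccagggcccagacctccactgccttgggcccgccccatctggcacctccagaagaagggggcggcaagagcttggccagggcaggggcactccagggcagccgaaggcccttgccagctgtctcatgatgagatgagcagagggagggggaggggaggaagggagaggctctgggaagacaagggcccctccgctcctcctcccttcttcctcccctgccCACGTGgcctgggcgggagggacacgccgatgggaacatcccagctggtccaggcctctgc
LINC01976: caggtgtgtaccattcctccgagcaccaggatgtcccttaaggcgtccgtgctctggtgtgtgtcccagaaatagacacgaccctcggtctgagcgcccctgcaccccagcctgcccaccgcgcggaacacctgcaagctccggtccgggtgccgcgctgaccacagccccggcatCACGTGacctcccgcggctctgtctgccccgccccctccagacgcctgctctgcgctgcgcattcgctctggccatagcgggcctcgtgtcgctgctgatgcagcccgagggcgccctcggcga
In the window of LINC00630 (chrX:102768903-102769202, plus strand), capitals mark TGACGTCA, the cyclic AMP response element, which begins 27 bases before the start site.
LINC00630: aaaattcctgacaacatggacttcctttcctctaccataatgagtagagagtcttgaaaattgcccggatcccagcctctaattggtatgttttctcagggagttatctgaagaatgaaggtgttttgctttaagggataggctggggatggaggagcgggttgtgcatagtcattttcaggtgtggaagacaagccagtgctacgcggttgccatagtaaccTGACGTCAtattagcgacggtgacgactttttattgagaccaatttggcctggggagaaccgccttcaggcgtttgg

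Library totals ranged from 43687828 to 64715535 counts, and the LINC genes took 0.107% to 0.13% of them. The median LINC gene had 61 to 132 counts in a library. All 9 markers of adrenergic neuroblasts were at 1 CPM or more. At that level were 1 of 4 Schwann cell markers (summed level 2.92 to 8.5 CPM), 2 of 5 fibroblast markers (32.1 to 49.6 CPM), 1 of 3 endothelial markers (0.791 to 2.61 CPM) and 0 of 3 immune markers (0.259 to 0.886 CPM). SOX10, from the Schwann cell list, and CD3E, from the immune list, had no count in any of the 8 libraries. The summed neuroblast markers ran from 5160 to 6850 CPM in the libraries labelled CR31B and from 4880 to 6680 CPM in those labelled DMSO. The libraries of replicate 1 stand apart: of 6901 genes that differed in replicates 2 to 4, 98.9% had the opposite sign in replicate 1. Whether the labels of that pair are exchanged was not tested, and replicate 1 and the paired-end layout cannot be told apart. For this reason a direction is always that of replicates 2 to 4 as labelled. Replicate 1 is given for the set as a whole and beside only part of the named genes.

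Most LINC genes of the table were silent or nearly so in these cells. Of the 2260, 1376 had no count in any of the 8 libraries, 556 had a mean under 0.05 CPM and 197 a mean between 0.05 and 0.5 CPM. Of the 131 that were kept, 47 lay under 1 CPM, 41 between 1 and 5, 26 between 5 and 20, and 17 at 20 CPM or more. The 10 highest took 53.8% of the summed level of the set. The limit of 0.5 CPM cut through a continuous range, with LINC01933 (0.501), LINC01376 (0.524) and LINC02606 (0.549) just inside and LINC02994 (0.497), LINC00574 (0.488) and LINC00942 (0.447) just outside, in mean CPM.

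Levels between genes were compared per kilobase of annotated exon, as the mean TMM-normalised CPM of the 8 libraries (TMM is the library scaling of edgeR). The highest were LINC01829 with 43.9 CPM per kb and LINC00682 with 43 CPM per kb, and the order of this first pair is not separated by the spread between libraries. LINC00674 (22.2), LINC01976 (17.5), LINC00641 (14.5) and LINC01798 (11.5) followed on the same scale. LINC00682 (ENSG00000245870, chromosome 4, 41872747 to 41882955, minus strand) had 145, 131, 121 and 118 CPM in CR31B replicates 1 to 4 and 138, 155, 129 and 124 CPM in DMSO replicates 1 to 4. These groups overlapped. The LINC00682 log2 fold change in replicates 2 to 4 was -0.14 ± 0.081 (SE) (adjusted p 0.193) (edgeR quasi-likelihood test, Benjamini-Hochberg). Its adjusted p was 0.026 in a fit with replicate number as a block, 0.0355 with upper quartile scaling and 0.0499 with total count scaling.

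LINC01829 (ENSG00000236780, chromosome 2, 67123357 to 67215319, minus strand) had 152, 126, 118 and 102 CPM in CR31B replicates 1 to 4 and 144, 141, 103 and 94.5 CPM in DMSO replicates 1 to 4. Its level differed more between replicate numbers than between treatments. The log2 fold change was 0.03 ± 0.13 (adjusted p 0.863), and its sign turned with the scaling.

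The question of the comparison was which LINC genes differed between CR31B and DMSO. Whether eIF4A was blocked in these cells was not measured here. In the 6 single-end libraries 32 of the 131 differed between CR31B and DMSO at an adjusted p under 0.05, which is 24.4% of the set, against 41.3% of all 16696 genes tested. Of these 11 were higher with CR31B (8.4% of the set, against 23.8% of all genes tested) and 21 were lower (16%, against 17.6%). In bulk RNA, fewer cells that hold a transcript and less of it per cell cannot be told apart. LINC01833 was the single LINC gene past 2-fold, against 1.99% of all genes tested past 2-fold higher and 0.683% past 2-fold lower. All 131 passed the filter on low counts, so no LINC gene was dropped from these counts. The CR31B libraries lay all above the DMSO libraries in 17 LINC genes and all below them in 27, against 27.7% and 24.4% of all genes tested (52.1% in either order), and the groups overlapped in the other 87.

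A fit with replicate number as a block called 17 LINC genes higher and 26 lower, or 32.8% of the set against 51.1% of all genes. Without both libraries of replicate 4 only 12 LINC genes passed, 9.16% of the set against 23.4% of all genes. Scaling moved the balance of directions: upper quartile scaling gave 6 higher and 29 lower and total count scaling 7 higher and 25 lower. Over all genes tested the share of calls that were higher moved too, from 57.5% to 40% and 43.1%, and the median of the set minus that of all genes was -0.058 under both scalings and -0.06 with TMM. The median log2 fold change of the 131 genes was -0.067, against -0.007 over all genes tested. By pair it was -0.144, -0.026 and -0.09 in replicates 2, 3 and 4 and 0.174 in replicate 1. With offsets for GC content and transcript length the median of the set was -0.02 and that of all genes -0.023.

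Under the labels of all 8 libraries, 0 of the 131 LINC genes passed, as did 0% of the 16518 genes tested (edgeR quasi-likelihood test with layout as a term). At an unadjusted p under 0.05 there were 2 LINC genes, LINC01376 and LINC02875, and DESeq2 and limma voom also gave 0 adjusted calls. All 32 LINC genes that passed in replicates 2 to 4 had the opposite sign in replicate 1, against 98.9% of all genes that passed there. The median absolute log2 difference of those 32 was 0.521 in replicates 2 to 4 and 0.45 in replicate 1. Across the 131 genes the values of replicate 1 and of replicates 2 to 4 had a Pearson correlation of -0.757, which is across genes that share libraries and is given as a description. An interaction of treatment with layout passed in 38 of 131 LINC genes, against 42.5% of all genes tested, and all 38 had opposite signs. The paired-end layout holds 1 library per group, so the spread in that test is that of the single-end libraries.

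**Figure D1:**
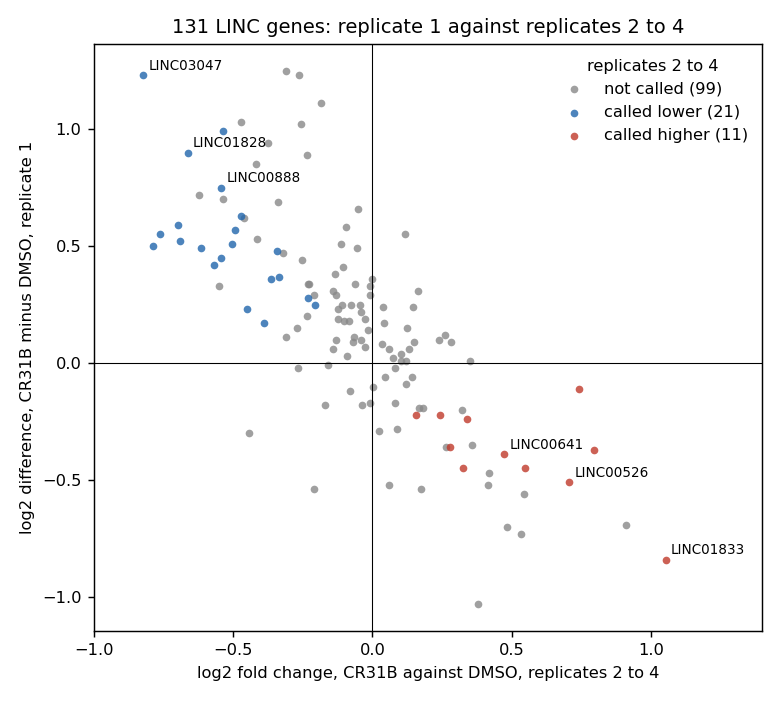
Log2 difference of CR31B minus DMSO in replicate 1 (y axis) against the log2 fold change in replicates 2 to 4 (x axis) for the 131 LINC genes, 1 point per gene, coloured by the call in replicates 2 to 4. The 11 genes called higher lie in the lower right quadrant and the 21 called lower in the upper left.

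Level went with how many LINC genes passed. Of the 43 LINC genes at 5 CPM or more 20 passed (46.5%), 8 higher and 12 lower, and of the 88 under 5 CPM 12 passed (13.6%), 3 higher and 9 lower. The median absolute log2 fold change was 0.23 above that limit and 0.197 below it, while the median standard error was 0.095 and 0.22. Protein-coding genes at 5 CPM or more passed in 56.1% of 10298 genes, 3442 higher and 2334 lower, and those between 0.5 and 5 CPM in 23% of 1899 genes. A change of the median size in the lower range was therefore no larger than its standard error.

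**Figure D2:**
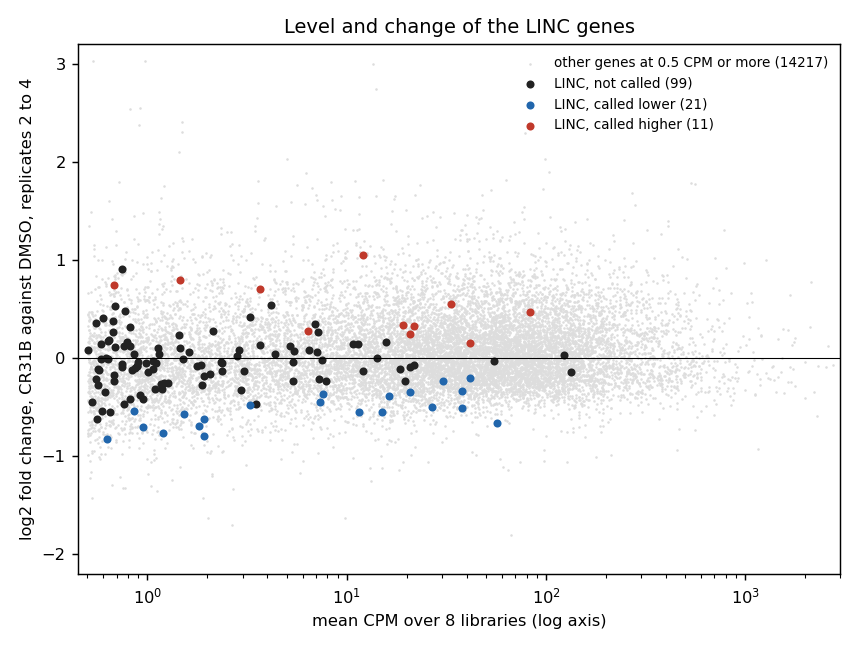
Log2 fold change in replicates 2 to 4 against the mean CPM over 8 libraries (log axis), with LINC genes as large points and 14217 other genes at 0.5 CPM or more in grey, 5 of them beyond the axes. The 12 LINC genes that passed under 5 CPM lie at 0.47 or more from 0, while those that passed at higher levels reach down to 0.16.

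LINC01833 (ENSG00000259439, chromosome 2, 44921077 to 44939199, minus strand) rose most. Its first exon starts 2699 bases from the start of SIX3, a homeobox regulator of forebrain and eye development. With CR31B LINC01833 had 16.9, 16.9 and 13.7 CPM in replicates 2 to 4, and with DMSO 9.89, 6.98 and 6.03 CPM. Every CR31B library of these replicates was above every DMSO library. In replicate 1 the order was opposite, with 9.82 CPM in the library labelled CR31B and 17.6 CPM in that labelled DMSO. The log2 fold change was 1.05 ± 0.16 (adjusted p 0.000545), or 2.07-fold. SIX3 itself rose by less, with a log2 fold change of 0.35 and an adjusted p of 0.0319.

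LINC00641 (ENSG00000258441, chromosome 14, 21200079 to 21206900, minus strand) has a longest transcript of 1 exon and was, by CPM, the third most abundant LINC gene. It had 93.7, 101 and 97.4 CPM with CR31B and 67.4, 72.4 and 70.8 CPM with DMSO in replicates 2 to 4. Replicate 1 had 69.8 CPM in the library labelled CR31B and 91.7 CPM in that labelled DMSO. The groups did not overlap in replicates 2 to 4, and the log2 fold change was 0.47 ± 0.052. Its adjusted p of 5.32e-05 was the smallest of the 131.

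LINC00662 (ENSG00000261824, chromosome 19, 27684580 to 27793940, minus strand), a spliced RNA, had 37.5, 41.1 and 41.7 CPM with CR31B and 27.3, 27.8 and 27.2 CPM with DMSO in replicates 2 to 4. Replicate 1 had 27.5 CPM under the CR31B label and 37.6 CPM under the DMSO label. The DMSO libraries of replicates 2 to 4 lay close together and all below those of CR31B. The log2 fold change was 0.55 ± 0.06 (adjusted p 5.57e-05).

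LINC00526 (ENSG00000264575, chromosome 18, 5236724 to 5238598, minus strand), an RNA of 1 exon, was the fourth LINC gene whose rise held under each of the 19 alternatives run. It had 4.69, 4.76 and 4.35 CPM with CR31B and 2.88, 2.92 and 2.67 CPM with DMSO in replicates 2 to 4. Replicate 1 had 2.98 CPM in the library labelled CR31B and 4.24 CPM in that labelled DMSO. The log2 fold change was 0.71 ± 0.11 (adjusted p 0.000617). Exons of other genes cover 41.2% of its exonic bases on the opposite strand and 14.9% on its own. The name of the deposited table holds the word reverse, which may refer to strand, but no source used here states the setting. If strand was not used, reads of the overlapping genes cannot be told apart.

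The other 7 that rose each lost the call under at least 1 alternative. LINC01679 on chromosome 21 has the kinase gene SIK1 as its nearest coding gene, with starts 64840 bases apart. LINC01679 had 2.21, 1.88 and 1.5 CPM with CR31B and 0.905, 1.29 and 1.03 CPM with DMSO. Its log2 fold change was 0.79 ± 0.2, and the adjusted p of 0.00886 became 0.101 without both libraries of replicate 2. LINC02693, listed as coding in GENCODE 29 under the name C17orf51, had 0.33 ± 0.081 (adjusted p 0.00886, and 0.0753 without both libraries of replicate 4). LINC00632, the CDR1-AS host locus on the X chromosome, had 19.6, 25.3 and 22.7 CPM with CR31B and 17.6, 18.5 and 17.5 CPM with DMSO. Its log2 fold change of 0.34 ± 0.091 passed at 0.0128, and with GC and length offsets it was 0.041 (adjusted p 0.727). The labels give polyadenylated RNA, which circular RNAs are not, and the counts are those of the host gene.

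LINC02875 had 0.74 ± 0.22 (adjusted p 0.0193). Its adjusted p was 0.0604 without CR31B replicate 4 and 0.0673 without DMSO replicate 2 or DMSO replicate 4. LINC01128 had 0.24 ± 0.069 (adjusted p 0.0177), and 0.0686, 0.063 and 0.081 without CR31B replicate 4, DMSO replicate 2 and DMSO replicate 3. LINC00630, whose promoter window holds the cyclic AMP response element shown above, had 0.28 ± 0.096 (adjusted p 0.0403), and between 0.0578 and 0.13 when any 1 of the 6 libraries was left out. LINC00938 had 0.16 ± 0.052 (adjusted p 0.0356). Its adjusted p was 0.061, 0.0911, 0.129 and 0.112 without CR31B replicate 2, CR31B replicate 4, DMSO replicate 3 and DMSO replicate 4, and its direction turned to -0.11 with GC and length offsets.

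**Figure D3:**
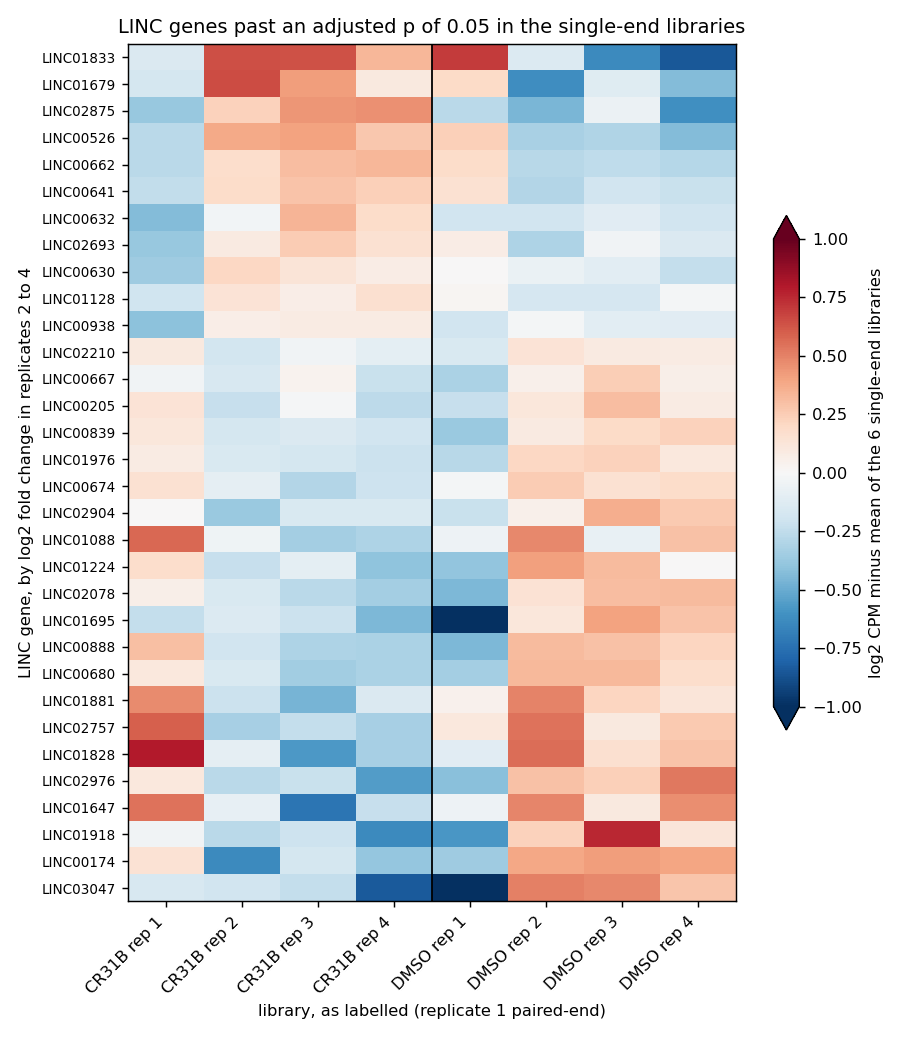
Log2 CPM of the 32 LINC genes that passed, per library, minus the mean of the 6 single-end libraries (colour, from -1 to 1), with genes in rows by log2 fold change and libraries in columns as labelled. In replicates 2 to 4 the upper 11 rows are higher with CR31B and the lower 21 rows lower, and the replicate 1 columns run the other way.

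LINC01828 (ENSG00000235885, chromosome 2, 67086446 to 67311439, plus strand) was the most abundant of the LINC genes that fell. It had 47.9, 34.3 and 40.5 CPM with CR31B and 75.1, 57 and 62.3 CPM with DMSO in replicates 2 to 4. Replicate 1 had 88.3 CPM under the CR31B label and 47.3 CPM under the DMSO label. The groups did not overlap in replicates 2 to 4, and the log2 fold change was -0.66 ± 0.12 (adjusted p 0.00167).

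LINC00888 (ENSG00000240024, chromosome 3, 183447608 to 183456013, plus strand), an RNA whose gene body contains the small nucleolar RNA genes SNORA63D and SNORA63E, had little spread within its groups. It had 13, 12 and 11.9 CPM with CR31B and 18.5, 18.2 and 17.2 CPM with DMSO in replicates 2 to 4. Replicate 1 had 18.3 and 10.9 CPM under the CR31B and DMSO labels. Its log2 fold change was -0.54 ± 0.074 (adjusted p 0.000238). GENCODE 29 lists it as a transcribed pseudogene, and 6.1% of its exonic sequence is shared with another gene on that strand.

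LINC02078 (ENSG00000267719, chromosome 17, 79707266 to 79712317, plus strand) carries the E-box shown above 11 bases before its start. It had 34.3, 31.7 and 30.1 CPM with CR31B and 42.1, 47.2 and 47.4 CPM with DMSO in replicates 2 to 4. Replicate 1 had 39.8 and 28 CPM under the CR31B and DMSO labels. The log2 fold change was -0.51 ± 0.07 (adjusted p 0.000254), and the groups of replicates 2 to 4 did not overlap.

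LINC00680, LINC00674 and LINC00174 also fell under each of the 19 alternatives run. LINC00680 (chromosome 6, 57946074 to 57961501, minus strand) had 10.3, 8.99 and 9.16 CPM with CR31B and 14.3, 14.3 and 12.9 CPM with DMSO in replicates 2 to 4, a log2 fold change of -0.55 ± 0.088. LINC00674 (chromosome 17, 68101908 to 68115518, plus strand) had 15, 13 and 13.8 CPM with CR31B and 19.1, 17.7 and 18.1 CPM with DMSO, a log2 fold change of -0.39 ± 0.077. Both are listed as transcribed pseudogenes in GENCODE 29, so reads can be shared with their parent copies and the values are uncertain. LINC00174 (chromosome 7, 66376044 to 66493566, minus strand), a long spliced RNA, had 1.2, 1.66 and 1.43 CPM with CR31B and 2.46, 2.52 and 2.47 CPM with DMSO, a log2 fold change of -0.79 ± 0.15. LINC00174 shares 13.3% of its exonic sequence with another gene on that strand. The adjusted p values of LINC00680, LINC00674 and LINC00174 were 0.000683, 0.00246 and 0.00213.

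Beside LINC00174, the largest falls by size were in scarce RNAs, of which several lost the call when 1 library was left out. LINC03047 on chromosome 8 had 0.572, 0.552 and 0.358 CPM with CR31B and 0.938, 0.918 and 0.798 CPM with DMSO in replicates 2 to 4, a log2 fold change of -0.82 ± 0.23. Its adjusted p was 0.014, and 0.0533 without CR31B replicate 4. LINC01918 had -0.76 ± 0.22 (adjusted p 0.0173), and 0.0692 and 0.0785 without CR31B replicate 4 and DMSO replicate 3. Both lay near 1 CPM.

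LINC01647 had a log2 fold change of -0.7 ± 0.22 (adjusted p 0.029). Without CR31B replicate 3, CR31B replicate 4, DMSO replicate 2 or DMSO replicate 4 it was between 0.0599 and 0.0959. LINC01695 had -0.54 ± 0.18 (adjusted p 0.0395), and between 0.0521 and 0.133 without any 1 of CR31B replicates 2, 3 and 4 and DMSO replicates 3 and 4. LINC01881 had -0.57 ± 0.17 (adjusted p 0.0239), and 0.069 and 0.103 without CR31B replicate 3 and DMSO replicate 2; it too is listed as a transcribed pseudogene. LINC02757 had -0.62 ± 0.16 (adjusted p 0.0115), and 0.0546 without DMSO replicate 2. LINC02976 had -0.69 ± 0.16 (adjusted p 0.00542, and 0.0995 without both libraries of replicate 4).

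The remaining LINC genes that fell had log2 fold changes between -0.49 and -0.21. They were LINC01224, LINC01088, LINC02904, LINC01976, LINC00205, LINC00839, LINC00667 and LINC02210. LINC01976 is the shortest LINC gene of the set, with 434 exonic bases, and carries the second E-box shown above. It had 6.88, 6.78 and 6.59 CPM with CR31B and 8.86, 8.99 and 8.23 CPM with DMSO in replicates 2 to 4, a log2 fold change of -0.36 ± 0.088. With GC and length offsets the LINC01976 value was -0.14 (adjusted p 0.243). LINC01088 was the exception to separated groups, with 2.94 CPM in CR31B replicate 2 above 2.87 CPM in DMSO replicate 3.

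**Figure D4:**
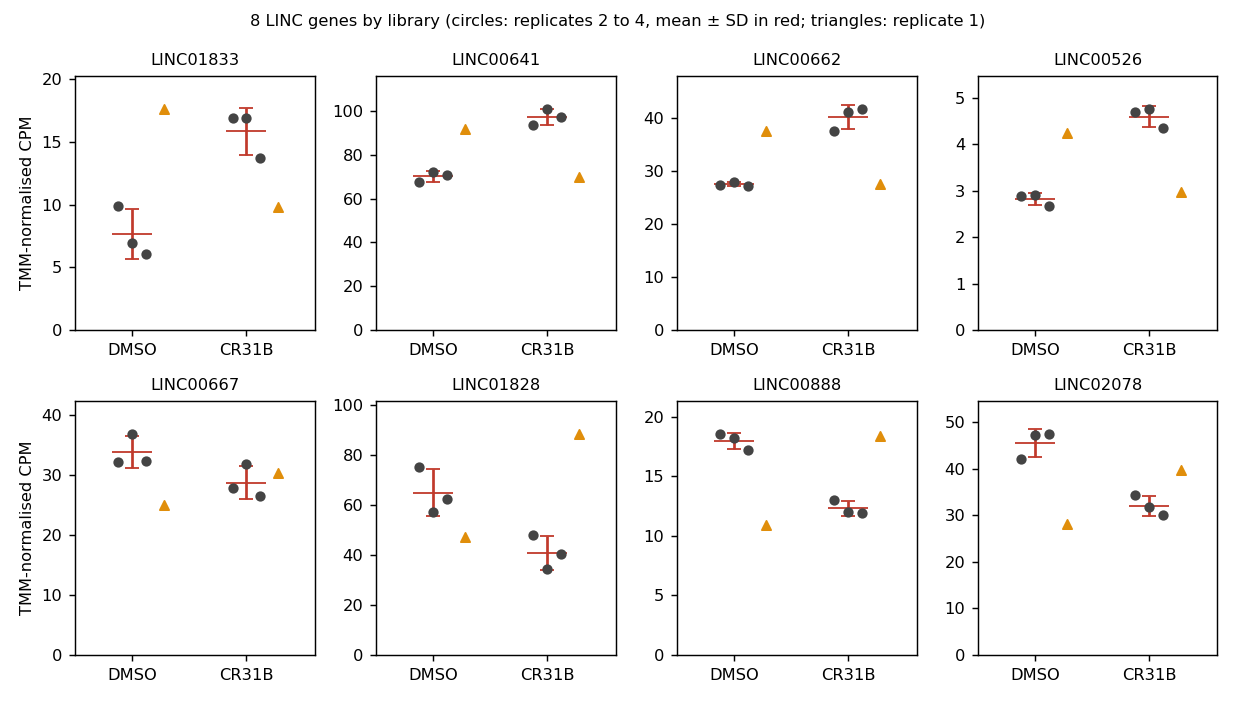
TMM-normalised CPM of 8 LINC genes in each library (y axes start at 0), with circles for replicates 2 to 4, red bars for their mean ± SD (n = 3) and triangles for replicate 1. LINC01833, LINC00641, LINC00662 and LINC00526 are higher with CR31B in replicates 2 to 4, the other 4 are lower, and in each panel the replicate 1 triangles have the opposite order.

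Several LINC genes with published interest in cancer did not pass. LINC00467 (chromosome 1, 211382803 to 211435333, plus strand) had 17.2, 21.3 and 16.8 CPM with CR31B and 23.1, 22.9 and 18.9 CPM with DMSO in replicates 2 to 4. These groups overlapped, and the fold change on the log2 scale, -0.23 ± 0.11, did not pass (adjusted p 0.118). It passed in the fit with replicate number as a block (-0.23, adjusted p 0.0189), with GC and length offsets (-0.31, adjusted p 0.0363), with upper quartile scaling (-0.32, adjusted p 0.049), and without CR31B replicate 3 (-0.35, adjusted p 0.0145). LINC00665 had 53, 53.1 and 53.7 CPM with CR31B and 58.3, 53.5 and 51.2 CPM with DMSO, a log2 fold change of -0.03 ± 0.058. LINC00511 had 0.02 ± 0.14 and LINC01116 0.13 ± 0.19, both within the spread between replicates.

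LINC00839 (chromosome 10, 42475543 to 42495336, plus strand) was the one of these that fell. It had 18.6, 19.1 and 18.4 CPM with CR31B and 22.4, 24 and 24.7 CPM with DMSO in replicates 2 to 4, and 22.8 and 16.3 CPM under the CR31B and DMSO labels of replicate 1. The groups of replicates 2 to 4 did not overlap, and the log2 fold change was -0.34 ± 0.065 (adjusted p 0.00194). Without both libraries of replicate 4 its adjusted p was 0.0544. LINC00461, a neural RNA, had no count in any library.

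LINC genes that start close together on opposite strands had unlike values. By RefSeq starts LINC00526 and LINC00667 share 170 bases of promoter window. Their GENCODE 29 starts are 772 bases apart, and the distances of the pairs described below are those of GENCODE 29. LINC00526 rose by 0.71 while LINC00667 fell, from 32.2, 36.9 and 32.4 CPM with DMSO to 27.9, 31.9 and 26.6 CPM with CR31B in replicates 2 to 4. The LINC00667 log2 fold change was -0.23 ± 0.083 (adjusted p 0.046). In replicate 1 both ran the other way, with -0.51 for LINC00526 and 0.28 for LINC00667. Exons of the pair overlap in part on opposite strands in GENCODE 29, and exons of other genes, LINC00526 among them, cover 25.3% of the exonic bases of LINC00667 on the strand opposite to it. The difference between the members of a pair was not tested.

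LINC00662 and LINC02987 start 477 bases apart on opposite strands of chromosome 19. LINC00662 rose by 0.55, while LINC02987 had 11.2, 11.8 and 11.1 CPM with CR31B and 10.3, 10.4 and 10.1 CPM with DMSO, a log2 fold change of 0.15 (adjusted p 0.154). The groups of LINC02987 did not overlap either, and in replicate 1 it had the same sign, with 11 and 10.3 CPM under the CR31B and DMSO labels. LINC00174 and LINC03011 start 140 bases apart on chromosome 7. LINC00174 had -0.79 and LINC03011 -0.1 (adjusted p 0.78), at no more than 1.1 CPM in any library. LINC01128 and LINC00115 start 2384 bases apart on chromosome 1, with 0.24 and -0.09.

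A gene desert on chromosome 2 between MEIS1 and ETAA1 held 4 LINC genes of the set. MEIS1 encodes a homeobox transcription factor of the TALE class. From MEIS1 outward, LINC01798 had a log2 fold change of -0.11 (adjusted p 0.448), LINC01799 of 0.28 (0.144), LINC01828 of -0.66 (0.00167) and LINC01829 of 0.03 (0.863). LINC01828 and LINC01829 lie across each other on opposite strands. LINC01798 starts 161 bases beyond the end of MEIS1 on the same strand, and had 15.4, 21.2 and 17.4 CPM with CR31B and 19.3, 20.5 and 18.7 CPM with DMSO. Without CR31B replicate 3 the LINC01798 value was -0.25 (adjusted p 0.0382). MEIS1 itself rose by 0.85 (adjusted p 1.12e-06). Of these 4 LINC genes 1 passed.

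The coding genes nearest to LINC genes were then set against them, however far away they were. Across 111 LINC genes whose nearest coding gene was also tested, the log2 fold changes had a Pearson correlation of 0.28 and a Spearman correlation of 0.34, given as a description over gene pairs that share libraries. The median distance between the starts of a pair was 52100 bases. Some coding genes were counted more than once, such as SAMD11 with LINC00115, LINC01128 and LINC02593. The head to head pairs described below are among the 111. In 8 of the 111 pairs both genes passed, and in all 8 they had the same sign. Not all of these lie close: LINC01128 and SAMD11 start 98790 bases apart. Among coding genes and their own nearest coding gene, 58.8% of the 2381 pairs in which both passed had the same sign. In 15 pairs the LINC gene passed and its neighbour did not. The direction was the same in 64 of 111 pairs, against 53.9% of coding pairs.

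Of 9 LINC genes head to head with a coding gene (opposite strands, starts within 2 kb), 2 passed and both went with their partner. LINC00205 (chromosome 21, 45288050 to 45297806, plus strand) starts 152 bases from POFUT2, an enzyme that adds fucose to secreted proteins. LINC00205 had 32.2, 37.6 and 31.5 CPM with CR31B and 41, 46.9 and 40.1 CPM with DMSO, a log2 fold change of -0.34 ± 0.084 beside -0.52 for POFUT2. LINC00938 had 0.16 beside 0.3 for ARID2, a subunit of the PBAF chromatin remodeller. In other pairs the coding gene passed and the LINC gene did not: ZNF41 rose by 0.74 with LINC01560 at 0.08 (adjusted p 0.644), and KMT2E, a chromatin regulator, rose by 0.78 with LINC01004 at -0.11 (adjusted p 0.643).

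Of 21 LINC genes that start within 10 kb beyond the end of a coding gene on the same strand, 3 passed. LINC00641 starts 2236 bases beyond HNRNPC, a pre-mRNA binding protein gene, and had 0.47 beside 0.42 for HNRNPC. LINC02875 lies 2285 bases beyond TBX2, a T-box transcription factor gene, and had 0.74 beside 1.31 for TBX2. LINC02976 lies 1077 bases beyond CNPY3, a chaperone of Toll-like receptors, and had -0.69 beside -0.45 for CNPY3. Whether reads running on from the coding gene contribute to these LINC counts was not tested. LINC01376 went against its upstream neighbour, with -0.45 (adjusted p 0.135) beside 0.87 for OSR1.

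**Figure D5:**
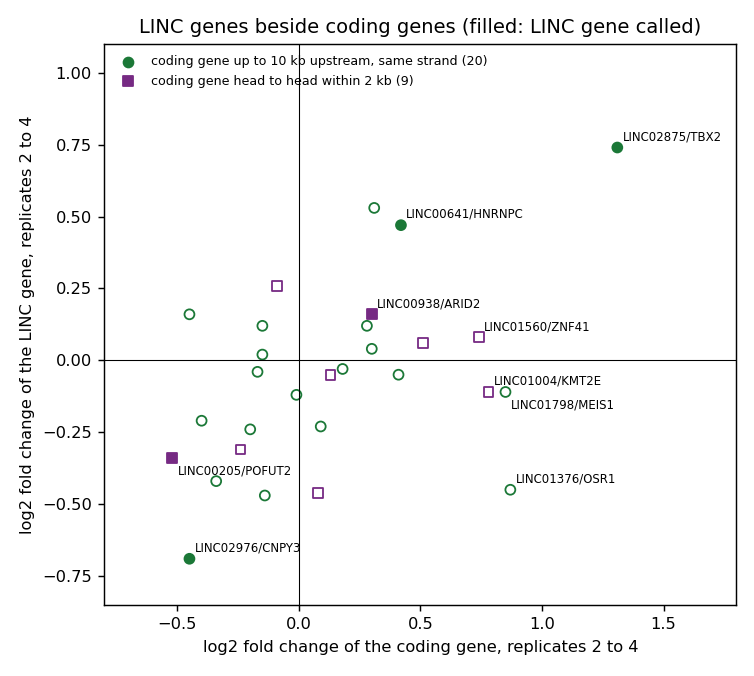
Log2 fold change in replicates 2 to 4 of LINC genes (y axis) against that of the coding gene up to 10 kb upstream on the same strand (circles, 20 pairs) or head to head within 2 kb (squares, 9 pairs), with filled symbols where the LINC gene passed. All 5 filled points lie in the quadrants of equal sign, and LINC01798, LINC01004, LINC01560 and LINC01376 sit beside coding genes that rose.

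The LINC genes that rose and fell had unlike annotated structures. The 25 LINC genes whose longest transcript has 1 exon gave 4 calls, all higher, and the 106 spliced ones 28 calls, 7 higher and 21 lower. The median exonic length was 5715 bases for the 11 that rose, 2929 bases for the 21 that fell and 2811 bases for the 99 others. Their median GC content was 47.9%, 51.1% and 50.1% in that order. The same groups also differed in level, with medians of 19.1, 7.62 and 1.14 CPM, and structure was not set apart from level. With offsets for GC content and length in the model, 10 LINC genes were higher and 19 lower. These are descriptions over few genes, and no test of the differences was made.

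Promoter windows were found for 89 of the 131. CACGTG was in 9 of them (10.1%), against 7.43% of all 27305 windows of the same length and 10.1% of the windows of tested coding genes. It was in 2 of 11 that fell, 0 of 9 that rose and 7 of 69 that did not pass. TGACGTCA was in 5 (5.62%, against 1.98% of all windows and 3.36% of those of tested coding genes), of which LINC00630 rose and 4 did not pass. TGANTCA was in 8 (8.99%, against 7.76% and 4.07%), all in genes that did not pass. This pattern is wider than the site of AP-1 factors, which has C or G at the open base. The matches in LINC00242, LINC01122 and LINC01415 were TGATTCA, so these shares are not shares of AP-1 sites. TGATGNAA, the core of the amino acid response element that ATF4 binds, was in 0 of 89, in 3.67% of all windows and in 1.66% of those of tested coding genes. Both strands were searched and none of the printed motif matches overlap another.

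Other noncoding classes at 0.5 CPM or more passed in similar shares, but not all with the same balance of directions. Of 347 other genes annotated as lincRNA 27 were higher and 51 lower (22.5% passed), with a median log2 fold change of -0.084. Of 334 genes with an antisense symbol 43 were higher and 45 lower (26.3% passed), with a median of -0.086. Of 12197 coding genes 3696 were higher and 2516 lower (50.9% passed), with a median of 0.029. In a list of 20 named long noncoding RNAs, 17 were tested, and DLEU2 was higher while 6 were lower. Among these NORAD, the abundant Pumilio-binding RNA, had -0.47 ± 0.058, MIAT -0.96 ± 0.15 and PVT1, the neighbour of MYC, -0.47 ± 0.085. MALAT1 (-0.16, adjusted p 0.16) and TUG1 (0.02, adjusted p 0.779) did not pass. The median coding gene was at 36.4 CPM and the median LINC gene at 1.75 CPM, so the shares that passed were reached at different depths.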

How the data were processed

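The authors deposited raw counts, not normalised, for Ensembl gene identifiers in 8 IMR32 libraries. Per the submitters' processing notes, GRCh38, FastQC 0.11.7, STAR 2.7.2b, edgeR 3.36.0 and limma 3.50.3 were used, with no role given; the annotation release is not given in the sources used here, and strand only perhaps by the word reverse in the name of the deposited table. Each column was matched to its library by name, 1 of them (CR31B replicate 4) with its leading letter missing.

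Symbols came from a table of current names (58434 of 58787 identifiers matched) and positions from GENCODE 29 (58515 matched), also on GRCh38. Tests used edgeR 4.0.16 under R 4.3.3 (quasi-likelihood on counts, two-sided, filterByExpr, TMM, Benjamini-Hochberg over all tested genes, threshold 0.05). The 6 single-end libraries were fitted without covariates and all 8 with layout as a term. "Passed", "rose" and "fell" refer to the first fit. Pair differences are on log2 CPM, prior count 1. limma 3.58.1 and DESeq2 1.42.0 were alternatives. No molecular identifiers are described, so depth speaks to counting error only.

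Genes named were up to 12 per direction with the largest change among those that passed with 1 direction in replicates 2 to 4, the 6 highest per kilobase, a list from general knowledge, and the genes at the CPM limit; others were named after their values were seen, as partners in a pair, as neighbours or to complete those that passed. The members and lists were chosen with earlier results of these data known. In the 6 libraries the deviations of same-numbered libraries correlated (0.208 in replicate 2, 0.388 in 3, 0.157 in 4), and the numbers were taken to pair libraries. The fit behind "passed", "rose" and "fell" leaves this pairing out. It called 11 LINC genes higher and 21 lower, and the fit with replicate number as a block called 17 and 26. On simulated counts for 16518 genes with 200 changed 2-fold, 97.5% were recovered with 11 false calls among 206 in the 6-library design. The changed genes were drawn above a floor of counts, and all genes had the same simulated spread and no pair effect. Only 1 of the 131 LINC genes changed by 2-fold or more. The recovery therefore does not speak to the smaller changes or the scarce genes of this set.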

Additional observations from a re-analysis of the deposited data

Results flagged for a closer look

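In replicate 1 the difference between the labelled groups departed from that in replicates 2 to 4 in 38 of 131 LINC genes. Over all genes tested the share was 42.5% (interaction of treatment with layout, edgeR, Benjamini-Hochberg). Among the 33 genes named by the rule this interaction passed in 25, with adjusted p values from 8.12e-05 to 0.0421. Most of the 33 were named for their change in replicates 2 to 4, which enters this test. The 25 therefore cannot be set against the share of all genes. The replicate 1 difference minus that of replicates 2 to 4, on the log2 scale, was -1.9 for LINC01833, -1.21 for LINC00526, -1.16 for LINC01679, -1 for LINC00662, -0.87 for LINC00641, -0.78 for LINC02693, -0.64 for LINC00630, -0.58 for LINC00632, -0.46 for LINC01128 and -0.37 for LINC00938. It was 2.1 for LINC03047, 1.57 for LINC01828, 1.56 for LINC01695, 1.33 for LINC01918, 1.3 for LINC00888, LINC00174 and LINC01647, 1.22 for LINC02976, 1.11 for LINC02757, 1.01 for LINC02078, 1 for LINC00680 and LINC01881, 0.83 for LINC00839, 0.73 for LINC01976 and 0.56 for LINC00674. LINC02875, LINC00467, LINC00682 and LINC01829 were among the 8 that did not pass this test.

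Single libraries far from the rest of their labelled group were found in 9 of 68 groups of 4 checked. A rate of 1 in 20 would give about 3.4, but it holds only for independent groups that were not selected. Here 26 of the 33 named genes had passed in replicates 2 to 4, and all groups share the same 8 libraries. The count is therefore a description. The measure divides the distance from the closest other library by the spread of all 4. Replicate 1 was the distant library in 7. The ratio was 0.943 for LINC00174, 0.841 for LINC00526 and 0.936 for LINC00662 in the DMSO group, and 0.892 for LINC00665, 0.859 for LINC00839, 0.971 for LINC00938 and 0.925 for LINC02757 in the CR31B group. The other cases were LINC00632 in DMSO replicate 3 with 0.95 and LINC03047 in CR31B replicate 4 with 0.856. LINC00665 stands out among these because it did not differ between the groups: its CR31B libraries of replicates 2 to 4 lay between 53 and 53.7 CPM and that of replicate 1 at 59.4 CPM.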

How the results depend on the processing

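In replicates 2 to 4 the 10 LINC genes LINC01833, LINC00641, LINC00662, LINC00526, LINC01828, LINC00888, LINC02078, LINC00680, LINC00674 and LINC00174 kept their direction and their side of the threshold under all 19 alternatives run; the other 16 named genes that passed lost the call under at least 1. The count of LINC genes higher was 6 with upper quartile scaling, 7 with total count scaling and 17 with replicate number as a block, and the median of the set was -0.16 and -0.143 under the same 2 scalings, which also moved the median of all genes to -0.102 and -0.085. The replicate block changed the call of LINC00467 and LINC00682 and of no other named gene. Leaving out libraries or pairs moved the LINC genes that passed between 12 and 34, those higher between 5 and 13, those lower between 7 and 24, the median between -0.131 and -0.015 and the named genes that passed between 11 and 24; the lowest counts, 12, 5, 7 and 11, came without both libraries of replicate 4, and the fewer libraries leave fewer residual degrees of freedom. With 8 libraries as labelled, leaving out a library gave 0 to 32 that passed, 0 to 11 higher and 0 to 21 lower. Only the fits without CR31B replicate 1 or DMSO replicate 1 made any calls. In those fits the layout term takes up the 1 paired-end library that is left. Their treatment difference therefore rests on the same 6 single-end libraries as the main fit and is no separate check. By GENCODE 29 names, an alternative chosen after seeing the data, 30 of 114 passed, 11 higher and 19 lower, and among the 100 with under 5% of exonic bases shared with other genes 9 were higher and 15 lower.

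Direction turned in genes near 0. With upper quartile scaling, total count scaling and the filter of 1 CPM, LINC00511 had -0.071, -0.054 and -0.011 and LINC01829 -0.061, -0.044 and -0.0025. With GC and length offsets, LINC00938 had -0.11, LINC01798 0.023 and LINC01829 -0.046, and with the replicate block added -0.11, 0.014 and -0.033. Leaving out libraries moved LINC00511 between -0.13 and 0.11, LINC01829 between -0.071 and 0.22, LINC01116 between -0.059 and 0.33 and LINC00665 between -0.073 and 0.03; the cause was not tested.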
